A study of Homo sapiens with 12 samples.

Results

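HMGCS1, IDI1, FDFT1, SQLE, LSS, DHCR7, SREBF2 and INSIG1 are 8 genes of the cholesterol pathway, taken by symbol from the 26417 gene symbols kept from the deposited tables. Of these 8 genes, 6 encode enzymes that build cholesterol, 1 encodes the transcription factor SREBP2 and 1 encodes its inhibitor INSIG1. They were measured by sequencing of poly(A) RNA in PC3 cells, a prostate adenocarcinoma line, and in MG63 cells, an osteosarcoma line, both labelled wild type. Cells were transfected by Lipofectamine RNAiMAX with siRNA at 10 nM, namely siControl (a control without a target), siLARP4A or siLARP4B, and RNA was taken 72 h later. The targets LARP4A and LARP4B bind RNA and belong to one protein family; the tables name the LARP4A gene LARP4. The 6 groups had 2 libraries each, described as biological replicates, 12 in all. The siRNA sequences and their number per target are not given in the sources used here, so effects of a single siRNA cannot be told apart from those of its target. PC3 was grown in RPMI medium and MG63 in Alpha-MEM, both with 10% FBS, so the medium cannot be told apart from the line. These are bulk libraries, in which fewer cells of one state and less RNA per cell cannot be told apart.

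Cholesterol is made from acetyl-CoA through mevalonate and isoprenoid units to squalene, which is oxidised, closed into rings and trimmed to cholesterol. SREBP2, held in the endoplasmic reticulum by SCAP and the INSIG proteins when sterols are plentiful, is cut free when they are scarce and switches on the genes of this route and of lipoprotein uptake. INSIG1 is itself an SREBP target, and SREBF2 is known to be one as well, so the pathway carries its own feedback. SREBP acts at sterol regulatory elements, usually beside binding sites for the general factors NF-Y and Sp1.

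The stretches of DNA just upstream of 4 of the genes are shown because these genes moved together in MG63 (HMGCS1, IDI1 and INSIG1) or apart from the others (SREBF2). They come from RefSeq (GRCh38.p14), are 120 bases long, read 5′ to 3′ on the gene's own strand and lie upstream of every protein-coding start annotated for that gene. Which start of a gene is used in these cells was not tested. They are at chr22:41832959-41833078 (plus strand) for SREBF2, chr5:43313513-43313632 (minus) for HMGCS1, chr7:155297652-155297771 (plus) for INSIG1 and chr10:1056705-1056824 (minus) for IDI1. Capitals mark matches, on either strand, to a sterol regulatory element with the letters TCACNCCAC, to an E-box with the letters CACGTG, to the CCAAT box that NF-Y binds (printed ATTGG where it is inverted), or to an Sp1 box. The Sp1 box has the letters GGGCGG and, where it lies on the opposite strand of the gene, is printed as its reverse complement.
SREBF2: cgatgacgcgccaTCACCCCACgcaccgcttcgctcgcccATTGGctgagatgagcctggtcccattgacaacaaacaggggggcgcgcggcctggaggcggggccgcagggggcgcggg
HMGCS1: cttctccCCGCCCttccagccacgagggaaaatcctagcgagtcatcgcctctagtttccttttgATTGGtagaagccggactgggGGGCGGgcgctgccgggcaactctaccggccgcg
INSIG1: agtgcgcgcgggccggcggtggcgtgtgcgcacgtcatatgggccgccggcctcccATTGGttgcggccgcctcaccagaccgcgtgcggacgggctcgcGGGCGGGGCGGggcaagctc
IDI1: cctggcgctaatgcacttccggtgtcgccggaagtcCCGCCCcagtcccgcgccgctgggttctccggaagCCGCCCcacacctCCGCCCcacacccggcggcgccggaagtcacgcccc
The SREBF2 stretch holds a sterol regulatory element (TCACCCCAC) followed by an inverted CCAAT box, the HMGCS1 and INSIG1 stretches hold an inverted CCAAT box with Sp1 boxes, and the IDI1 stretch holds 3 Sp1 boxes. The 2 Sp1 boxes of INSIG1 overlap by 1 base. RefSeq windows of 300 bases, from 250 before to 50 after each start, were found for 6 of the 8 genes and not for SQLE or FDFT1. Of the 6, DHCR7 (which also moved with HMGCS1, IDI1 and INSIG1 in MG63) and LSS (which did not) are not printed. The 6 genes had 10 windows. The sterol regulatory element was in 1 of these 10, against 1.13% of all 35116 windows. A CCAAT box was in 7 of 10 against 34.6%, an Sp1 box in 9 of 10 against 45%, and an E-box in 2 of 10 against 7.26%. Over the 17106 windows of tested genes the shares were 1.01% for the sterol regulatory element, 34.3% for the CCAAT box, 63.5% for the Sp1 box and 8.93% for the E-box. For IDI1 the CCAAT boxes lay in its windows at chr10:1048837-1049136 (3 matches) and chr10:1049070-1049369 (2), not in the window of the printed stretch. For HMGCS1 they lay only in the window of the printed stretch, at chr5:43313363-43313662. The HMGCS1 transcript model counted here starts at 43313181, in the window chr5:43313132-43313431, which held no CCAAT box. Matches to these letters are a description of the sequence, and windows of 1 gene can overlap.

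Library totals ran from 16950119 to 24864977 fragments, and the 8 genes held 9998 (IDI1) to 53090 (SREBF2) fragments over the 12 libraries. LARP4, the target of siLARP4A, had a level of 19.0 and 19.4 FPKM in PC3 siControl and 2.36 and 2.47 with siLARP4A, and 8.18 and 8.50 against 2.11 and 2.19 in MG63. LARP4B had 7.02 and 7.18 FPKM in PC3 siControl and 1.35 and 1.26 with siLARP4B, and 6.64 and 6.77 against 1.89 and 2.20 in MG63. In every library the targeted transcript was low under its own siRNA. LARP4 also rose with siLARP4B in MG63, by 0.44 on the log2 scale (edgeR adjusted p 5.37e-06). Epithelial markers (KRT8, KRT18, EPCAM, CDH1, ESRP1, GRHL2) summed to 495 to 641 FPKM in PC3 and 52.6 to 70.1 in MG63. Their sum was highest with siLARP4A in PC3 (617 and 641) and lowest with siLARP4B in MG63 (52.6 and 54.3), and the part of this in the results below was not tested. KRT8 and KRT18 made up most of the sum, and EPCAM of the same list was lower with siLARP4A in PC3 (19.8 and 18.6 FPKM against 25.3 and 24.9). ESRP1, GRHL2 and the prostate gene KLK3 were under 1 FPKM in PC3. The mesenchymal and bone list summed to 12.5 to 17.8 FPKM in PC3 and 2690 to 3400 in MG63, where it was highest with siLARP4A. Its genes did not move together there. COL1A1 changed most, with 1340 and 1300 FPKM with siLARP4A against 744 and 745 with siControl. COL1A2 had 660 and 634 FPKM with siLARP4A against 458 and 474 with siControl. COL3A1 was lower, at 714 and 629 against 763 and 788, as was SPARC, at 688 and 654 against 720 and 747. The bone genes RUNX2 and ALPL were near 0 in MG63, at 0.14 to 0.654 and 0.342 to 1.08 FPKM.

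With siControl, 7 of the 8 genes were lower in PC3 than in MG63 and DHCR7 did not pass the test. Of all tested genes 81.8% differed between the lines, 39.7% being lower and 42.1% higher in PC3. The genes are compared with each other in FPKM, the fragments of a transcript scaled to its length and to the library total. In MG63 FDFT1 was highest at 102 ± 2.58 FPKM (SD, n = 2), followed by SREBF2 at 59.0 ± 1.58, SQLE at 50.1 ± 0.952, DHCR7 at 46.2 ± 0.264, INSIG1 at 32.9 ± 0.175, HMGCS1 at 23.8 ± 0.203, IDI1 at 19.4 ± 1.39 and LSS at 16.9 ± 3.42. Of the neighbours in that order, IDI1 and LSS overlapped between libraries and the others did not. PC3 had another order, led by DHCR7 at 54.6 ± 2.64 FPKM, then FDFT1 at 34.7 ± 0.313, SQLE at 29.3 ± 1.37, SREBF2 (28.7 and 29.4 FPKM in the single libraries), INSIG1 at 14.4 ± 0.328, HMGCS1 at 13.0 ± 0.518, IDI1 at 8.72 ± 0.314 and LSS at 3.67 ± 0.274. There SQLE and SREBF2 overlapped. The difference in counts between the lines was largest for LSS, with a log2 value of -2.37 (edgeR adjusted p 1.31e-12, SE 0.149), and FDFT1 differed by -1.71 (SE 0.0558, edgeR adjusted p 6.47e-18). DHCR7 differed by 0.08 (95% interval -0.06 to 0.22, edgeR adjusted p 0.285), though limma on log2(FPKM + 1) gave 0.23 with an adjusted p of 0.0134.

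**Figure D1:**
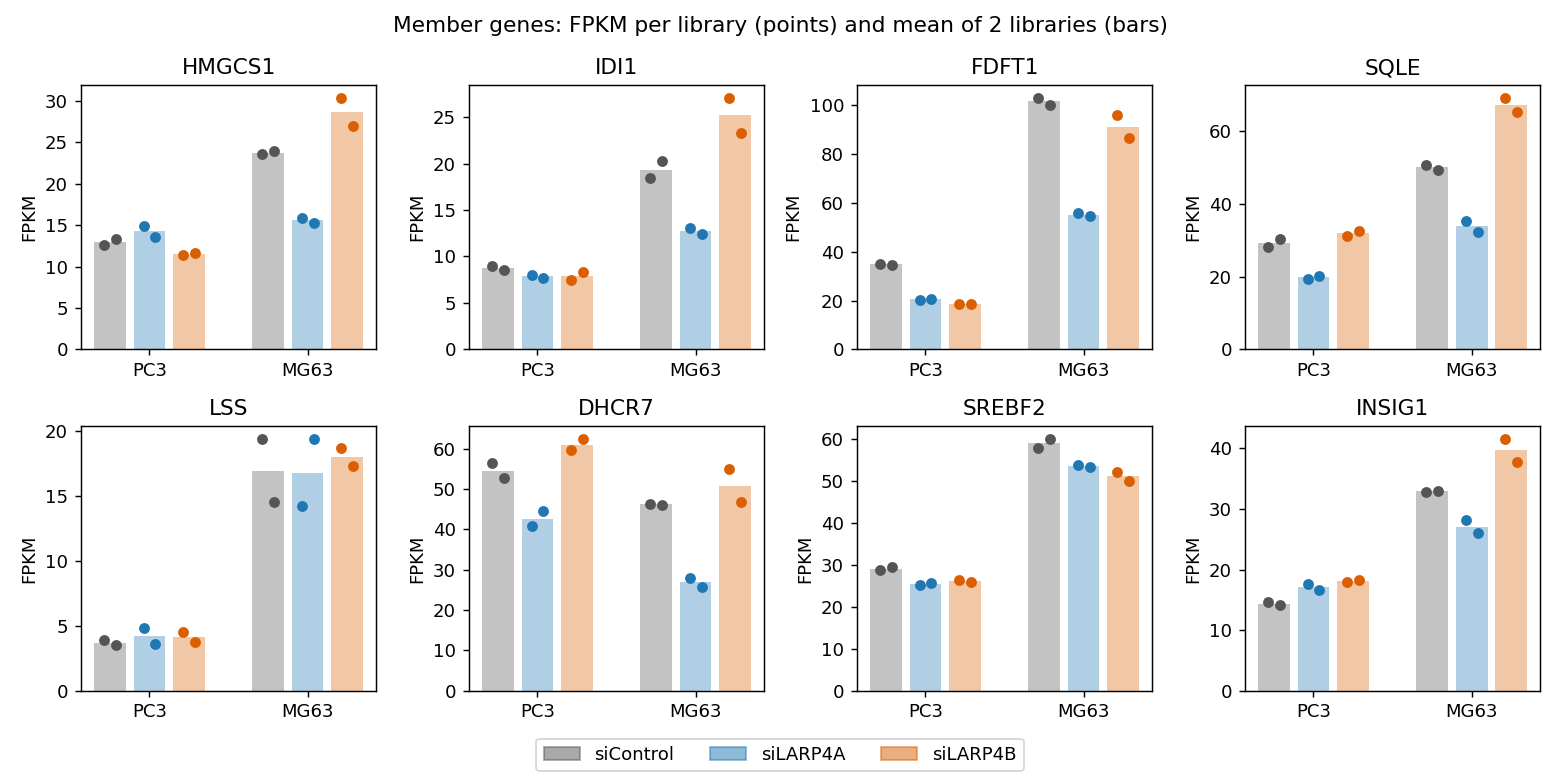
Level of each of the 8 genes in FPKM (vertical axis, from 0, with its own range per gene) for PC3 and MG63; points are single libraries and bars the mean of 2. Grey is siControl, blue siLARP4A and orange siLARP4B; in MG63 the blue points of FDFT1 lie at 54.5 and 55.7 FPKM, under the grey ones at 99.8 and 103.

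HMGCS1 and IDI1 belong to the mevalonate arm. Both fell after siLARP4A and rose after siLARP4B in MG63, and neither showed that pattern in PC3. HMGCS1 (chromosome 5, 43287470 to 43313181, minus strand) encodes the cytosolic HMG-CoA synthase, an early step of the mevalonate arm. In MG63 its level was 23.6 and 23.9 FPKM with siControl, 15.9 and 15.3 with siLARP4A, and 30.4 and 27.0 with siLARP4B, so that the 3 groups did not overlap. The share of all tested genes whose libraries separate in this way was not counted. Separation of libraries is therefore only a description, here and below. HMGCS1 counts fell, in log2 units, by 0.59 after siLARP4A (SE 0.0616, edgeR adjusted p 2.19e-07) and rose by 0.30 after siLARP4B (SE 0.0592, edgeR adjusted p 3.93e-04). In PC3 its level was 12.6 and 13.3 FPKM with siControl, 14.9 and 13.6 with siLARP4A, and 11.4 and 11.6 with siLARP4B. The siLARP4A libraries thus lay above siControl there, but the difference of 0.13 did not pass (95% interval -0.01 to 0.26, edgeR adjusted p 0.135). Without PC3 siLARP4A replicate 2 it was 0.22 and passed (edgeR adjusted p 0.0111). After siLARP4B HMGCS1 fell in PC3 by 0.21 (SE 0.0656, edgeR adjusted p 0.0106). That call was lost with limma (adjusted p 0.0613) and without PC3 siControl replicate 2 (edgeR adjusted p 0.162), siLARP4B replicate 1 (0.128) or siLARP4B replicate 2 (0.0799).

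IDI1 (chromosome 10, 1039152 to 1056704, minus strand) encodes the isomerase that supplies dimethylallyl diphosphate for chain building. Its MG63 level was 18.4 and 20.3 FPKM with siControl, 13.1 and 12.4 with siLARP4A, and 27.1 and 23.3 with siLARP4B, again with no overlap. IDI1 counts fell by 0.59 after siLARP4A (SE 0.0794, edgeR adjusted p 7.19e-06) and rose by 0.41 after siLARP4B (SE 0.0743, edgeR adjusted p 1.67e-04). In PC3 the level was 8.95 and 8.50 FPKM with siControl, 8.01 and 7.69 with siLARP4A, and 7.45 and 8.29 with siLARP4B. All 4 libraries with a targeting siRNA were below both siControl libraries, and neither difference passed. It was -0.16 with siLARP4A (95% interval -0.35 to 0.02, edgeR adjusted p 0.174) and -0.19 with siLARP4B (-0.384 to -0.00226, edgeR adjusted p 0.0941). The siLARP4B value passed in a fit of its 4 libraries alone (edgeR adjusted p 0.0427) and without MG63 siLARP4B replicate 1 (0.047) or 2 (0.0461).

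The sterol arm begins with FDFT1 (chromosome 8, 11802611 to 11839309, plus strand), squalene synthase, the enzyme that commits the route to sterols. It showed the largest decrease of the 8 genes in 3 of the 4 comparisons with siControl. In PC3 it went from 34.7 ± 0.313 FPKM (SD, n = 2) to 20.3 and 20.8 with siLARP4A and to 18.5 and 18.7 with siLARP4B. These levels are 59.1% and 53.6% of the siControl mean. FDFT1 counts fell by 0.77 after siLARP4A (SE 0.0601, edgeR adjusted p 1.66e-09) and by 0.94 after siLARP4B (SE 0.0619, edgeR adjusted p 4.36e-11). In MG63 it went from 103 and 99.8 FPKM to 55.7 and 54.5 with siLARP4A, a fall of 0.86 in counts (SE 0.0537, edgeR adjusted p 1.12e-10). With siLARP4B it had 95.8 and 86.4 FPKM, both below siControl, and the difference of -0.13 did not pass (95% interval -0.24 to -0.02, edgeR adjusted p 0.0583). It passed with 4 other settings (adjusted p 0.0271 to 0.0489) and in 5 of the 12 fits that left out 1 library. The lowest of these was without MG63 siLARP4B replicate 1 (-0.21, edgeR adjusted p 0.00672), and the others left out PC3 siControl replicate 1 (0.0456) or 2 (0.0455) or PC3 siLARP4A replicate 1 (0.0183) or 2 (0.0186).

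SQLE (chromosome 8, 124998505 to 125022283, plus strand) encodes squalene monooxygenase, which adds the first oxygen to squalene. In MG63 it had 50.8 and 49.4 FPKM with siControl, 35.4 and 32.4 with siLARP4A, and 69.3 and 65.2 with siLARP4B. The groups were separate, and SQLE counts fell by 0.54 after siLARP4A (SE 0.0578, edgeR adjusted p 3.02e-07) and rose by 0.45 after siLARP4B (SE 0.0556, edgeR adjusted p 1.45e-06). In PC3 it had 28.3 and 30.3 FPKM with siControl, 19.4 and 20.3 with siLARP4A, and 31.2 and 32.6 with siLARP4B. SQLE fell after siLARP4A by 0.57 (SE 0.0612, edgeR adjusted p 1.87e-07), while the siLARP4B difference of 0.08 did not pass (95% interval -0.04 to 0.20, edgeR adjusted p 0.301).

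DHCR7 (chromosome 11, 71434411 to 71448393, minus strand) encodes the reductase that turns 7-dehydrocholesterol into cholesterol. It had 56.5 and 52.7 FPKM in PC3 siControl, 40.8 and 44.5 with siLARP4A, and 59.6 and 62.5 with siLARP4B. In MG63 it had 46.4 and 46.0 FPKM, 28.0 and 25.7, and 54.9 and 46.9 for those 3 groups. The siLARP4A libraries were below siControl in both lines. DHCR7 counts fell after siLARP4A by 0.37 for PC3 (edgeR adjusted p 1.93e-04, SE 0.0686) and by 0.76 for MG63 (edgeR adjusted p 5.52e-08, SE 0.0723). With siLARP4B both libraries of each line were above siControl, and neither difference passed, at 0.12 in PC3 (95% interval -0.02 to 0.26, edgeR adjusted p 0.168) and 0.17 in MG63 (0.02 to 0.31, edgeR adjusted p 0.065). The MG63 value was 0.27 and passed without MG63 siLARP4B replicate 2 (edgeR adjusted p 0.00484), and passed with no filter on low counts (0.0116) and without PC3 siLARP4A replicate 1 (0.0383) or 2 (0.0382). The PC3 value passed in a fit of its 4 libraries alone (0.0357) and without PC3 siControl replicate 1 (0.0441) or PC3 siLARP4A replicate 1 (0.0343) or 2 (0.0338).

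LSS (chromosome 21, 46189124 to 46228824, minus strand) encodes lanosterol synthase, which closes the first sterol ring system. It had 3.87 and 3.48 FPKM in PC3 siControl, 4.85 and 3.60 with siLARP4A, and 4.51 and 3.76 with siLARP4B. In MG63 it had 19.4 and 14.5 FPKM, 14.2 and 19.4, and 18.7 and 17.3 for those 3 groups. Replicates of LSS differed as much as the groups, which overlapped in all 4 comparisons with siControl. No LSS comparison within a line passed the test. Its intervals were wider than those of the other genes, from -0.15 to 0.56 on the log2 scale for siLARP4A in PC3 and from -0.25 to 0.27 in MG63. The tables also list LSS on an alternate sequence of the assembly, where no model had more than 4 fragments over the 12 libraries.

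SREBF2 (chromosome 22, 41833105 to 41907305, plus strand) encodes SREBP2, and the count of its transcript says nothing of how much of the protein is cut. In PC3 its level was 28.7 and 29.4 FPKM with siControl, 25.2 and 25.7 with siLARP4A, and 26.3 and 25.9 with siLARP4B. The MG63 libraries had 57.9 and 60.1 FPKM, then 53.8 and 53.3 (siLARP4A), and 51.1 ± 1.56 FPKM (SD, n = 2) with siLARP4B. All 8 libraries with a targeting siRNA lay below the siControl libraries of their line. SREBF2 counts fell in PC3 by 0.20 after siLARP4A (SE 0.0462, edgeR adjusted p 0.00146) and by 0.20 after siLARP4B (SE 0.0466, edgeR adjusted p 0.0015). The MG63 falls were 0.12 after siLARP4A (SE 0.0443, edgeR adjusted p 0.0482) and 0.18 after siLARP4B (SE 0.0442, edgeR adjusted p 0.00281). The siLARP4A call in MG63 was lost without MG63 siControl replicate 1 (edgeR adjusted p 0.0659) or 2 (0.215), without siLARP4A replicate 1 (0.113) or 2 (0.146), and under 4 other settings (0.0555 to 0.109), among them the replicate block (0.0762). The siLARP4B call in PC3 was lost without PC3 siLARP4B replicate 2 (0.0513).

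INSIG1 (chromosome 7, 155297772 to 155310235, plus strand) encodes the protein that holds the SCAP and SREBP complex back in the endoplasmic reticulum. In PC3 its level was 14.6 and 14.1 FPKM with siControl, 17.6 and 16.7 with siLARP4A, and 18.0 and 18.3 with siLARP4B. The 4 targeted libraries were above siControl, and INSIG1 counts rose by 0.25 after siLARP4A (SE 0.0664, edgeR adjusted p 0.00536) and by 0.30 after siLARP4B (SE 0.0672, edgeR adjusted p 9.95e-04). In MG63 its level was 32.8 and 33.0 FPKM with siControl, 28.2 and 26.0 with siLARP4A, and 41.6 and 37.8 with siLARP4B. There it fell by 0.26 after siLARP4A (SE 0.0607, edgeR adjusted p 0.00248) and rose by 0.30 after siLARP4B (SE 0.059, edgeR adjusted p 3.96e-04). Without MG63 siLARP4A replicate 2 the fall was 0.21 and did not pass (edgeR adjusted p 0.0535).

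Counted over the 8 genes, siLARP4A in MG63 gave the most calls of the 4 comparisons with siControl. There 7 of 8 fell and 0 rose, while of all tested genes 11.9% fell and 14.5% rose (26.4% in all), and the median log2 fold change was -0.57 against 0.01 over all tested genes. LSS was the gene that did not pass, and SREBF2 passed narrowly. After siLARP4B in MG63, 4 of 8 rose (HMGCS1, IDI1, SQLE and INSIG1) and SREBF2 fell, against 18.8% and 16.3% of all tested genes (35% in all), with a median of 0.23 against 0.00. In PC3, siLARP4A lowered 4 of 8 (FDFT1, SQLE, DHCR7 and SREBF2) and raised INSIG1, against 19% and 17% of all tested genes (36% in all), with a median of -0.18 against 0.00. After siLARP4B in PC3, 3 of 8 fell (HMGCS1, FDFT1 and SREBF2) and INSIG1 rose, against 23.3% and 21.3% (44.6% in all), with a median of -0.06 against 0.00. That count of 4 genes was 2 without PC3 siLARP4B replicate 2. Both siRNAs of a line were set against the same siControl libraries.

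**Figure D2:**
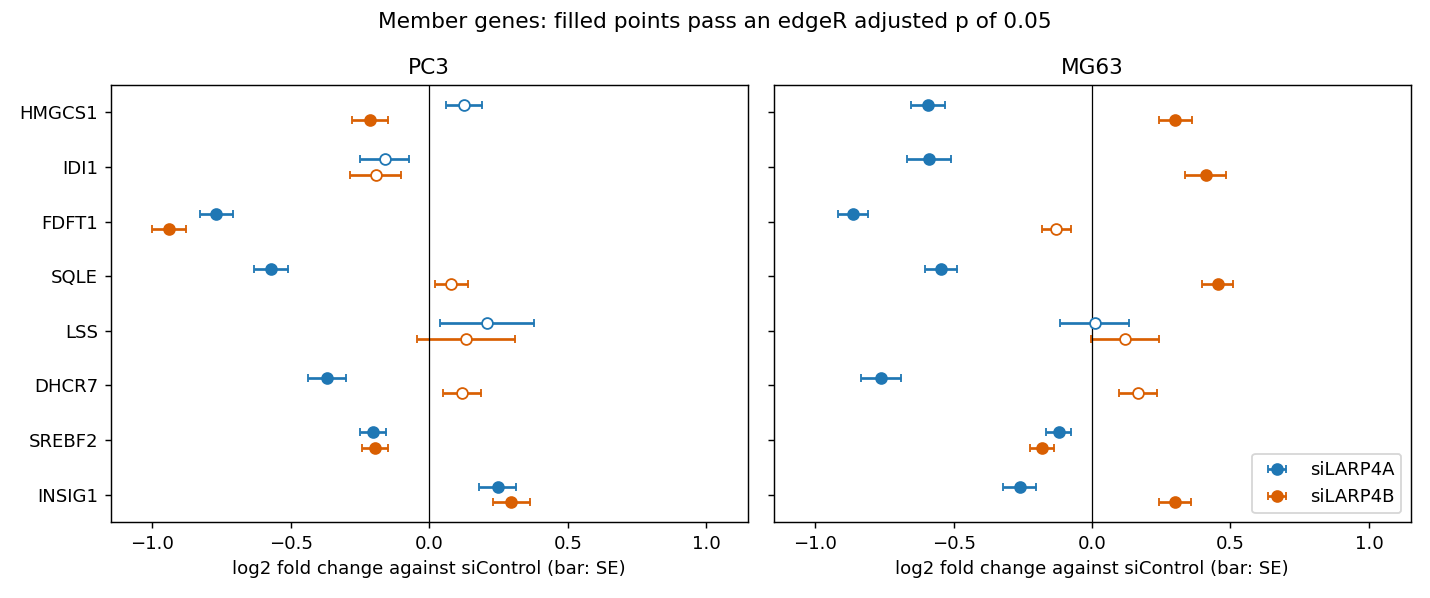
Log2 fold change of each gene against siControl (horizontal axis, bars are the standard error) in PC3 (left) and MG63 (right), for siLARP4A in blue and siLARP4B in orange; filled points have an edgeR adjusted p under 0.05. In MG63 7 of 8 blue points are filled and left of 0, and 4 orange points are filled and right of 0.

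In the direct comparison of the siRNAs the siControl means do not enter the difference, while those libraries share in the spread, the scaling and the filter. In MG63, 6 of 8 genes were lower with siLARP4A than with siLARP4B and 0 were higher, against 21.5% lower and 22.1% higher of all tested genes (43.5% in all). The median difference was -0.81 against 0.01 over all tested genes. SQLE was at 0.501 times its siLARP4B count (SE 0.0572 in log2, edgeR adjusted p 9.13e-12) and IDI1 at 0.5005 times (SE 0.0778). The log2 differences of the others were -0.93 for DHCR7, -0.89 for HMGCS1, -0.73 for FDFT1 and -0.56 for INSIG1. SREBF2 (0.06, 95% interval -0.03 to 0.15) and LSS (-0.11, -0.36 to 0.15) did not pass. In PC3, 2 of 8 were lower with siLARP4A, against 27.2% of tested genes, and 2 were higher, against 27% (54.2% in all). The lower genes were SQLE (-0.65, SE 0.0609, edgeR adjusted p 6.83e-09) and DHCR7 (-0.49, SE 0.0683, edgeR adjusted p 2.73e-06). The higher ones were HMGCS1 (0.34, SE 0.0644, edgeR adjusted p 1.15e-04) and FDFT1 (0.17, SE 0.0638, edgeR adjusted p 0.0271). The FDFT1 call was lost in DESeq2 (adjusted p 0.0588), in a fit of the 4 libraries alone (0.0546), and without PC3 siLARP4A replicate 2 (0.0762) or siLARP4B replicate 1 (0.129) or 2 (0.0769).

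Whether an siRNA acted differently in the 2 lines was tested as the effect in PC3 minus the effect in MG63. For siLARP4A, HMGCS1, IDI1, DHCR7 and INSIG1 passed, 4 of 8 genes, all with a higher value in PC3, against 4.09% of tested genes in that direction and 7.27% in the other (11.4% in all). The difference was 0.72 for HMGCS1 (SE 0.0885, edgeR adjusted p 1.17e-05) and 0.51 for INSIG1 (SE 0.09, edgeR adjusted p 6.13e-04). FDFT1 (0.09, 95% interval -0.07 to 0.26) and SQLE (-0.03, -0.20 to 0.15) did not pass. The count of 4 was 2 without MG63 siLARP4A replicate 2, where IDI1 (edgeR adjusted p 0.0929) and DHCR7 (0.0785) missed the threshold. IDI1 also missed it without PC3 siControl replicate 2 (0.0545) or MG63 siControl replicate 2 (0.114). For siLARP4B, HMGCS1, IDI1, FDFT1 and SQLE passed, all with a lower value in PC3, against 17.5% of tested genes in that direction and 10.3% in the other (27.8% in all). FDFT1 differed by -0.81 (SE 0.081, edgeR adjusted p 1.69e-07) and IDI1 by -0.60 (SE 0.118, edgeR adjusted p 5.51e-04). INSIG1 differed by 0.00 (95% interval -0.19 to 0.18).

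**Figure D3:**
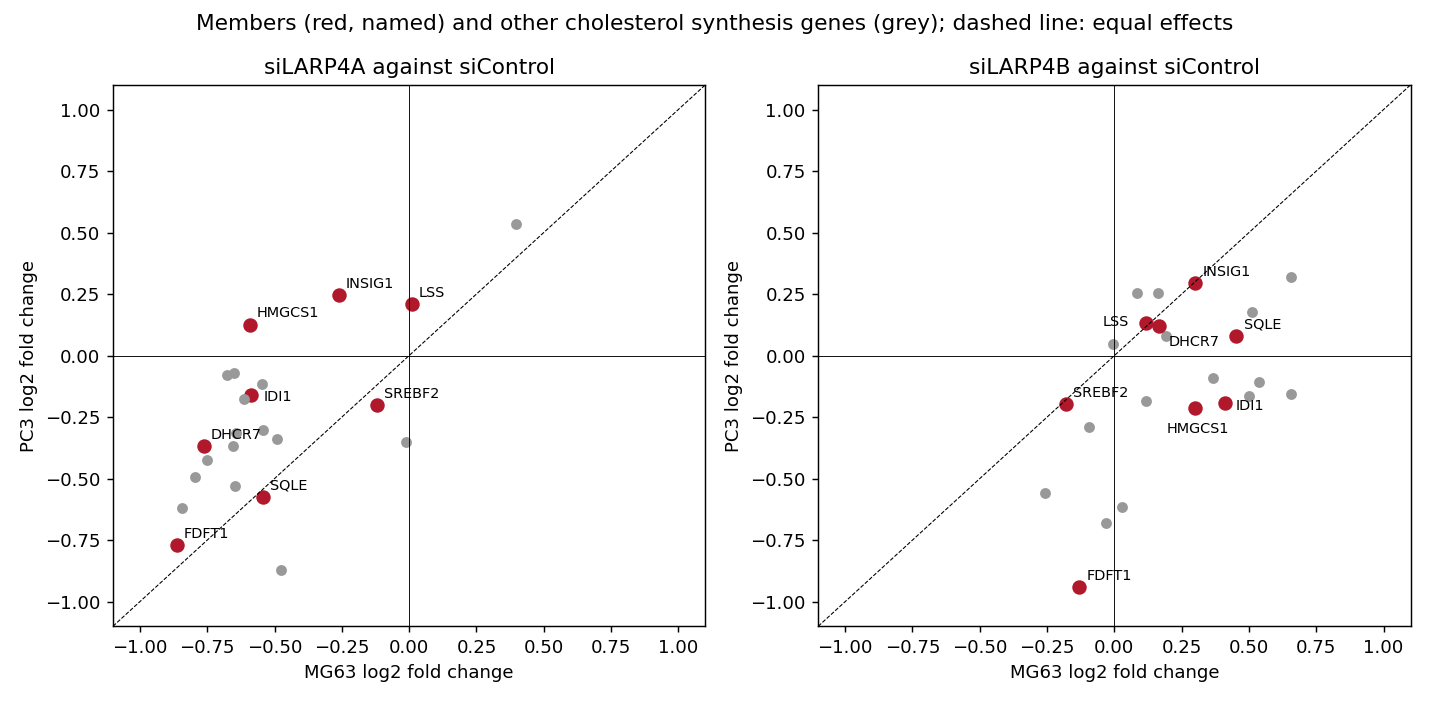
Log2 fold change against siControl in MG63 (horizontal axis) and PC3 (vertical axis) for siLARP4A (left) and siLARP4B (right). Red points are the 8 named genes and grey points other cholesterol synthesis genes; the dashed line marks equal effects, and HMGCS1 lies at -0.59 and 0.13 after siLARP4A.

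The rest of the route was read from 16 further synthesis genes. After siLARP4A in MG63, 13 of the 16 fell, 1 rose (LBR) and 2 did not pass, with a median of -0.63, where 11.9% of all tested genes fell and 14.5% rose. The largest falls were those of NSDHL (-0.84, SE 0.0878), which helps to remove the methyl groups of lanosterol, EBP (-0.80, SE 0.0916), a sterol isomerase, and FDPS (-0.75, SE 0.0615), which makes farnesyl diphosphate. LBR, a nuclear envelope protein that also has sterol reductase activity, rose by 0.40 (SE 0.0609, edgeR adjusted p 3.43e-05). After siLARP4B in MG63, 7 of the 16 rose, EBP fell and 8 did not pass, against 18.8% higher and 16.3% lower over all tested genes. HSD17B7, a ketosteroid reductase of the sterol arm, rose by 0.66 (SE 0.165).

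In PC3, 11 of the 16 fell after siLARP4A, LBR rose and 4 did not pass, with a median of -0.33, against 19% lower and 17% higher over all tested genes. TM7SF2, a sterol reductase, had the largest fall at 0.87 (SE 0.134, edgeR adjusted p 2.27e-05), followed by NSDHL at 0.62 (SE 0.0678). After siLARP4B in PC3, 7 of the 16 fell, 3 rose and 6 did not pass, against 23.3% lower and 21.3% higher.

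**Figure D4:**
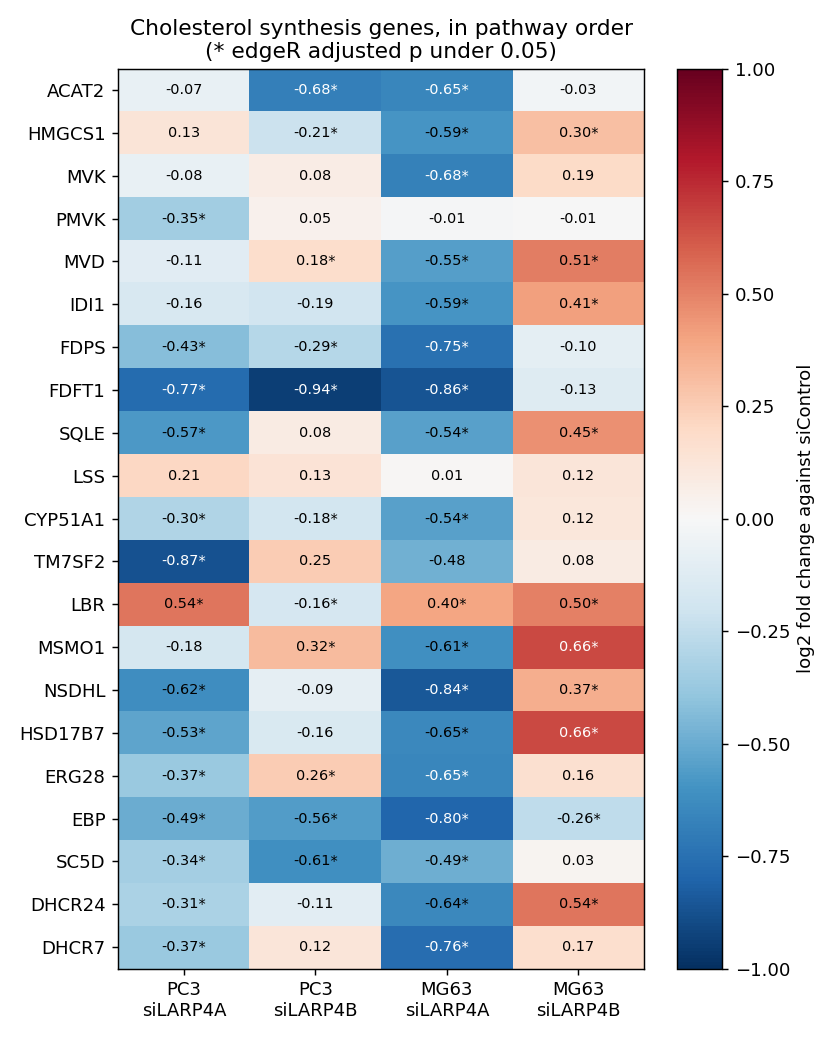
Log2 fold change against siControl (colour and number in each cell) of cholesterol synthesis genes, from the mevalonate arm at the top to the sterol arm at the bottom, in the 4 comparisons; a star marks an edgeR adjusted p under 0.05. The MG63 siLARP4A column is negative for all but LSS and LBR.

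Of the 5 SREBP control genes outside the 8, 2 rose and 0 fell in MG63 after siLARP4A, with a median of -0.04. Of all tested genes 14.5% rose and 11.9% fell there. SREBF1, which encodes the related factor SREBP1, did not pass there (-0.04, SE 0.0623, edgeR adjusted p 0.727) and fell after siLARP4B by 0.41 (SE 0.0628, edgeR adjusted p 2.56e-05). In PC3 it did not pass with either siRNA (-0.12 for both). Among these 5 genes 1 rose and 2 fell in each of the other 3 comparisons with siControl. Over all tested genes 17% to 21.3% rose and 16.3% to 23.3% fell in those comparisons. SCAP, which escorts SREBP to the Golgi, fell after siLARP4A in PC3 by 0.42 (SE 0.0592, edgeR adjusted p 8.86e-06) and rose after siLARP4B by 0.32 (SE 0.058, edgeR adjusted p 9.70e-05).

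Of the 9 uptake and transport genes, 3 rose and 5 fell after siLARP4A in PC3, against 17% and 19% of all tested genes. After siLARP4B in PC3, 2 rose and 4 fell, against 21.3% and 23.3%. LIPA, the lysosomal acid lipase, rose by 1.07 (SE 0.0522, edgeR adjusted p 3.18e-13) and STARD4, a sterol carrier, fell to 0.353 times its siControl count (log2 SE 0.124, edgeR adjusted p 1.66e-09). LIPA also rose after siLARP4B in MG63, by 0.70 (SE 0.0582, edgeR adjusted p 5.60e-09). There 3 of the 9 uptake and transport genes rose and 3 fell, against 18.8% and 16.3% of all tested genes. After siLARP4A in MG63, 2 rose and 2 fell, against 14.5% and 11.9%.

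The genes that export cholesterol had few fragments in MG63. ABCG1 had 31 and 29 fragments with siControl, 61 and 65 with siLARP4A and 11 and 16 with siLARP4B. It rose after siLARP4A by 1.13 (SE 0.212, edgeR adjusted p 3.32e-04) and fell after siLARP4B by 1.17 (SE 0.297, edgeR adjusted p 0.00384), opposite to HMGCS1, IDI1, SQLE and INSIG1 in both comparisons. ABCA1 had 77 and 74 fragments with siControl, 172 and 177 with siLARP4A and 66 and 102 with siLARP4B. It rose by 1.27 after siLARP4A (SE 0.17, edgeR adjusted p 6.31e-06). In PC3 neither exporter passed with either siRNA (ABCG1 -0.12 and -0.05, ABCA1 -0.08 and 0.05). CH25H, which makes an oxysterol that blocks SREBP, rose after siLARP4B in MG63 by 0.91 (edgeR adjusted p 0.0172, SE 0.283), from 21 and 40 fragments to 56 and 60. SOAT1, which esterifies cholesterol for storage, fell by 0.81 after siLARP4A in PC3 (SE 0.0823, edgeR adjusted p 9.61e-08). It was lower in MG63 too, with 8.61 and 9.27 FPKM for siControl and 5.53 and 5.47 for siLARP4A. NR1H3, the sterol sensor LXR alpha, fell after siLARP4B in PC3, from 3.03 and 3.25 FPKM to 1.38 and 1.66 (log2 SE 0.182, edgeR adjusted p 3.57e-05).

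Over all tested genes, 17% rose and 19% fell after siLARP4A in PC3, and 14.5% and 11.9% in MG63. After siLARP4B the shares were 21.3% and 23.3% in PC3, and 18.8% and 16.3% in MG63. The counts in the lists that follow are to be read beside these shares. Of the other lists, the 9 SREBP1 fatty acid genes had 6 lower and 0 higher after siLARP4A in each line. After siLARP4B they had 1 higher and 3 lower in PC3, and 3 of each in MG63. One of them, ACACA, is also listed on an alternate sequence, where a model held up to 2519 fragments, so its value here is uncertain. Among 7 genes of sterol enzyme and receptor turnover, 4 rose and 0 fell after siLARP4A in MG63. After siLARP4B 1 rose and 3 fell in each line, with MYLIP, a ubiquitin ligase that limits lipoprotein uptake, up by 0.44 in PC3 (SE 0.118). Of 6 genes of the isoprenoid branch, 1 fell after siLARP4A in each line. PGGT1B, a protein prenyltransferase subunit, fell by 0.89 after siLARP4B in PC3 (SE 0.0773), and FNTB, a farnesyltransferase subunit, by 0.64 after siLARP4B in MG63 (SE 0.104).

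Within MG63 the 6 genes HMGCS1, IDI1, FDFT1, SQLE, DHCR7 and INSIG1 varied together over the 6 libraries. The Pearson r of their 15 pairs ran from 0.761 to 0.992, with a median of 0.962. In PC3 the same pairs ran from -0.971 (FDFT1 and INSIG1) to 0.96 (SQLE and DHCR7), with a median of 0.121 and 8 of 15 above 0. The libraries of a line share their groups, so these values describe the group differences again and are not independent. In MG63 siLARP4B, replicate 1 was above replicate 2 in FPKM for 8 of 8 genes, and in MG63 siLARP4A for 7 of 8. In the other groups this held for 2 to 5 of 8. The share over all genes was not counted. SREBF2 and LSS were left out of these pairs after their values were seen; in MG63 their r with the 6 genes ran no higher than 0.329. In PC3 SREBF2 had an r of 0.973 with FDFT1 and -0.975 with INSIG1.

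The tested genes most like the mean pattern of the 8 were found over the 12 libraries after centring each line, among 6739 genes with at least 5 FPKM in both lines. They were KCTD5 (Pearson r 0.98), CYP51A1 (0.968), TTF1 (0.968), TMEM97 (0.965) and RDH11 (0.965). CYP51A1 is the lanosterol demethylase of the sterol arm, and TMEM97 is a sterol-binding protein of the uptake list. The likeness within a line was 0.971 in PC3 and 0.982 in MG63 for CYP51A1, and 0.767 and 0.987 for RDH11. Of the 41 listed pathway genes among the candidates, 5 were in the first 20 and 10 in the first 100.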

How the data were processed

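Poly(A) RNA was measured in 12 libraries, 2 for each siRNA group in PC3 and MG63. The submitters' processing notes name FastQC, HISAT2, featureCounts, edgeR and hg38, without roles; the annotation and the use of strand are not given in the sources used here. Per the file headers, the authors deposited for each transcript model a fragment count, an FPM signal, which adjusts the count for library size, and an FPKM value, which adjusts FPM for transcript length. The FPM signal was not used. A fragment is counted in each model that shares its exon, so 1 model per gene was used, the one with the most fragments over 12 libraries. Of 86394 models, those on chromosomes 1 to 22 and X were kept, and 1746 symbols at several loci were left out, except listed genes. Coordinates are those of the tables, on hg38.

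The test on the deposited counts was that of edgeR 4.0.16 under R 4.3.3 (glmQLFit and glmQLFTest, TMM scaling, filterByExpr, 1 mean per group over all 12 libraries, two-sided, Benjamini-Hochberg over 15671 genes, threshold 0.05). The biological coefficient of variation was 4.22%. Fold changes are from TMM-scaled counts, while FPKM is scaled to the library total. The script was tested on simulated data for siLARP4A in PC3, with changes set in genes drawn from all those tested. It recovered 20% of 1.2-fold changes, 72% of 1.5-fold and 94% of 4-fold changes, and 5.71% of its calls were false. A small difference that did not pass is therefore not shown to be absent. Groups have only 2 libraries, so each gene's spread leans on that of other genes, and p-values measure the spread between these libraries.

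Alternatives were DESeq2 1.42.0, DESeq2 size factors, limma 3.58.1 on log2(FPKM + 1), other filters, a replicate block, fits of the compared groups alone, leaving out each library, the deduplicated table of PC3 siControl replicate 2, and the longest model per gene. Exons overlap antisense or noncoding genes on the opposite strand for HMGCS1 (703 bases), IDI1 (643), FDFT1 (217), LSS (448 and 122) and SREBF2 (280) in GENCODE, so their reads cannot be told apart if strand was not used.

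The 8 genes and the lists were chosen with earlier results of these data known. Named besides the 8 and the targeted genes are SREBF1, the 3 highest and 3 lowest past the threshold among the 58 listed genes outside the 8 in each comparison with siControl, the 5 genes most like the 8 in pattern, and marker genes of the lines. ACACA is named for its alternate sequence, after its values were seen. Some genes that this rule names are not reported here.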

Additional observations from a re-analysis of the deposited data

Results flagged for a closer look

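The effect of an siRNA differed between the lines for 8 gene and siRNA pairs, by the test of the effect in PC3 minus the effect in MG63 (edgeR, n = 2 libraries per group). After siLARP4A the difference on the log2 scale was 0.72 for HMGCS1 (adjusted p 1.17e-05), 0.51 for INSIG1 (adjusted p 6.13e-04), 0.43 for IDI1 (adjusted p 0.0226) and 0.39 for DHCR7 (adjusted p 0.0117). For INSIG1 the 2 siLARP4A libraries lay above both siControl libraries in PC3 and below both in MG63. After siLARP4B it was -0.81 for FDFT1 (adjusted p 1.69e-07), -0.60 for IDI1 (adjusted p 5.51e-04), -0.51 for HMGCS1 (adjusted p 1.44e-04) and -0.37 for SQLE (adjusted p 0.00147). For HMGCS1 and IDI1 the siLARP4B libraries lay below siControl in PC3 and above it in MG63. The part of line, medium and siRNA efficiency in these differences was not tested; after siLARP4A, LARP4 was at 0.125 times its siControl count in PC3 and at 0.261 times in MG63.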

How the results depend on the processing

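Of 1512 refitted values (72 gene values under 21 alternatives), 1467 kept their call, 23 fell short of the threshold, 22 newly passed it and 0 called values changed sign. The changed calls fell on 13 of the 72 values, all given above. Leaving out 1 library gave 2 to 5 genes past the threshold for siLARP4B in PC3 (4 with all libraries) and 2 to 4 for the siLARP4A difference between lines (4). Over all tested genes, the siLARP4A count in MG63 was 4135 and fell to 2694 without MG63 siControl replicate 2, 2697 without siControl replicate 1 and 2699 without siLARP4A replicate 1. The count for the siLARP4A difference between lines was 1781, and 1046 to 1176 without PC3 siControl replicate 1 or any 1 of MG63 siControl replicates 1 and 2 and siLARP4A replicates 1 and 2. With the replicate block, 1 of the 72 calls changed (SREBF2 after siLARP4A in MG63), and the count there was 6 of 8 against 7. Same-numbered libraries share only a number in the labels, so the block is not a known pairing. Their replicate differences over all tested genes correlated at -0.0236 to 0.0457 between groups of a line. Whether they share a preparation was not tested. LSS had the largest SE of the 8 genes in each comparison with siControl. The cause of the changed calls was not tested.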
